A study of Mus musculus with 6 samples.

Results

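CD27, CD11b and 7 adhesion genes were followed in splenic natural killer (NK) cells that lacked METTL3. METTL3 is the enzyme that places N6-methyladenosine (m6A) on mRNA. The 9 genes were taken by symbol from the 14490 genes of the deposited table, and every one of them was listed: Cd27, Itgam (which encodes CD11b), Itga2 (CD49b), Itga4 (CD49d), Itgal (CD11a), Itgb1 (CD29), Itgb2 (CD18), Itgb7 and Cd44. WT cells came from Mettl3fl/fl mice and cKO cells from Mettl3fl/fl mice that also carried Ncr1-Cre, all C57BL/6, with 3 samples of each genotype. Both genotypes thus carried the floxed Mettl3 alleles, and WT mice had no Cre. Mice were 6 to 10 weeks old per the methods, Cre was driven from the gene for the NK receptor NKp46, and splenic NK cells were purified by flow cytometry. The methods describe isolation of splenic NK cells of these genotypes with an antibody to NKp46, but do not repeat the marker for the mRNA-seq samples.

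Mouse NK cells lose CD27, a costimulatory receptor of the TNF receptor family, and gain CD11b as they mature, so that this pair is commonly used to stage them. Integrins are pairs of an alpha and a beta chain. CD11a and CD11b each pair with CD18 to form LFA-1 and Mac-1, which bind ICAM molecules, whereas CD49b and CD49d pair with CD29 to bind collagen and VCAM-1 or fibronectin, and CD49d with the beta7 chain binds MAdCAM-1. CD44 is a receptor for hyaluronan, and CD49b is a standard surface marker of mouse NK cells.

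Transcripts of 3 of the 9 genes differed between the genotypes, all by small amounts, while those of the maturation pair did not differ detectably. Itgb2 was 12.2% higher in cKO cells, Itgal fell by 8.83% (log2 fold change -0.13) and Cd44 fell by 10.7% (log2 fold change -0.16). These 3 of 9 genes passed an adjusted p of 0.05 (limma, Benjamini-Hochberg over all genes), beside 36.6% of all 14490 genes tested. In one direction, 1 of 9 was higher, beside 17.8% of all genes, and 2 of 9 were lower, beside 18.8%. The share of adhesion genes that differed was therefore close to that of the whole transcriptome. The median absolute log2 fold change was 0.050 over the 9 genes and 0.17 over all genes. The threshold the study used with DESeq2 was an unadjusted p under 0.05 with a log2 fold change beyond 1 in either direction. Applied here to the limma results, it passed 0 of 9 genes, beside 1.75% of all genes. Values are normalized counts, the read counts of a gene divided by the size factor of its sample.

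**Figure D1:**
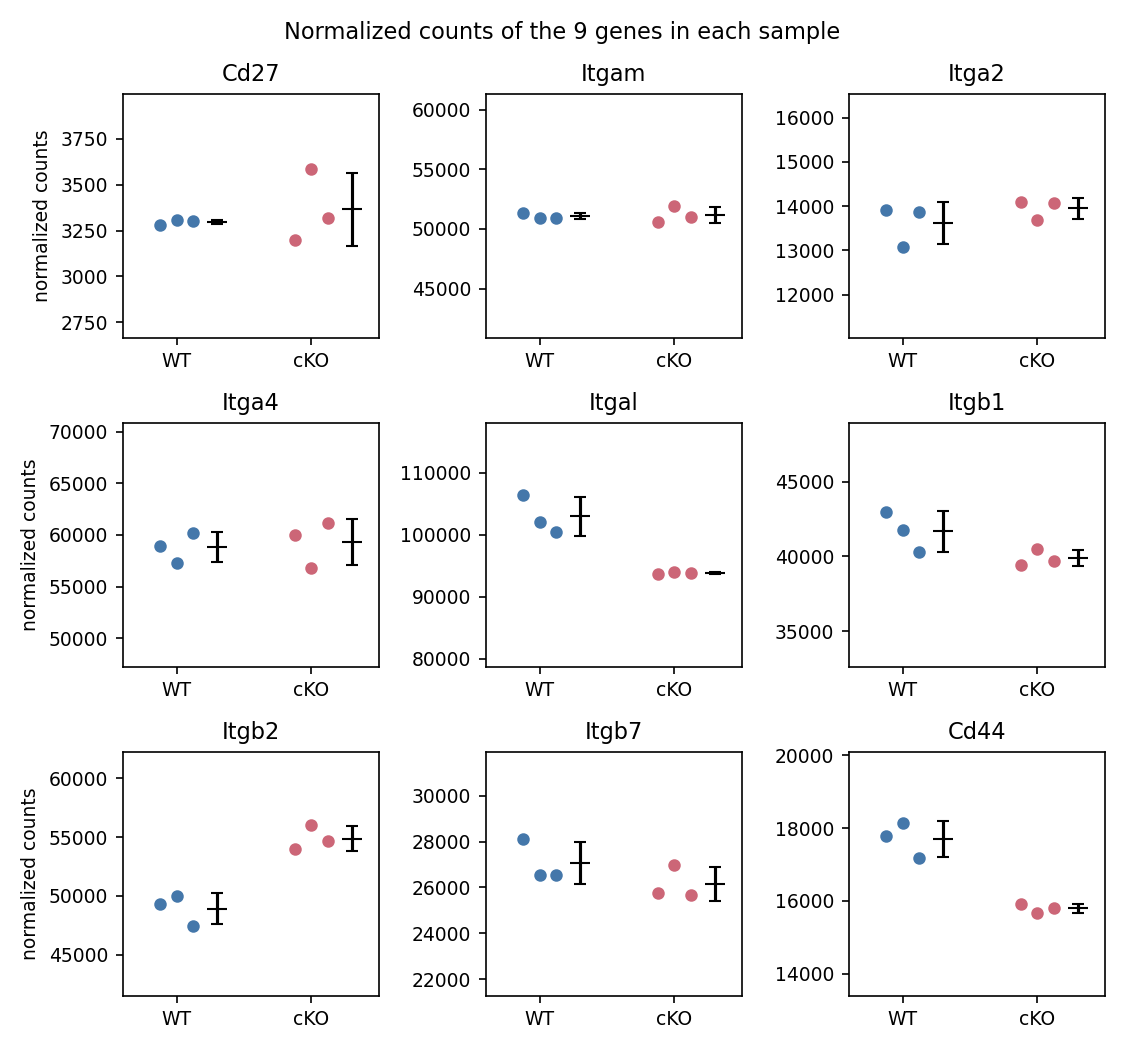
Normalized counts (each vertical axis spanning 20% below to 20% above the gene's mean) of the 9 genes in the 3 WT (blue) and 3 cKO (red) samples, with the mean and SD as black marks. For Itgb2, Itgal and Cd44 the genotypes do not overlap, and for the other 6 genes they do. Over all genes, 45.7% do not overlap.

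The genotype was visible in Mettl3 itself, with 1303, 1258 and 1192 normalized counts under WT and 297, 299 and 405 under cKO (log2 fold change -1.92). Ncr1, the locus that drives Cre, was also lower in cKO cells (log2 fold change -0.40, limma adjusted p = 3.56e-11). The samples held 55965515 to 71464042 reads on listed genes. Of 11 measured NK cell markers 0 were higher and 8 lower, beside 17.8% and 18.8% of all genes. B cell markers summed to 1444 to 1455 normalized counts in WT and 1987 to 2067 in cKO samples, with 8 of 10 genes higher. T cell markers summed to 16528 to 17837 and 12666 to 13303, with 1 of 9 genes higher and 2 lower. Cd28, a costimulatory receptor, was the T cell marker of highest level. Without it the other 8 T cell markers summed to 5036 to 5324 in WT and 4991 to 5276 in cKO samples, which overlapped. Of these 8, Cd3g was lower (log2 fold change -0.75) and Lef1 higher (0.14), so the overlapping sums hold changes in both directions. The sums of myeloid markers overlapped between the genotypes, although 4 of 8 genes were called, 3 higher and 1 lower. Sums also overlapped for platelet markers (1 of 5 called) and erythroid markers (0 of 6 called by limma, with 1 at an unadjusted p under 0.05). B and T cells also express several of the adhesion genes, and the part of these cells and of myeloid cells in the results was not tested. In bulk RNA, fewer cells of a type and less RNA per cell cannot be told apart.

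The bases GGACT are the best-known core of sites that METTL3 methylates. Methylation itself was not part of the measurements used here, so the motif is given only as a feature of the transcripts. One GENCODE (GRCm38) coding transcript of each gene was searched on its own strand. It was the one with the longest coding sequence, which need not be the main form in these cells. The occurrence nearest to the stop codon is shown for the maturation pair and for the 3 genes that differed, 5′ to 3′ in 29 bases with the motif in capitals.
Cd27: ccctatccaggaGGACTaccggaaacccg
Itgam: cacatttgatgtGGACTctcatgcctcct
Itgb2: cagggtttccagGGACTtgtcttccgacc
Itgal: ctggcccagccaGGACTgagggaggagag
Cd44: agactcatccaaGGACTccagggggagtt
The capitals lie at chr6:125233342-125233346 on the minus strand for Cd27, chr7:128113844-128113848 on the plus strand for Itgam, chr10:77565401-77565405 on the plus strand for Itgb2, chr7:127330414-127330418 on the plus strand for Itgal and chr2:102828587-102828591 on the minus strand for Cd44. The motif shown for Itgb2 followed the stop codon, and the other 4 lay in coding sequence.

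The maturation pair differed in this feature. Cd27 held 7 copies in 1559 bases, or 4.49 per kb, a density above that of 99.7% of 11871 genes with a coding transcript, while Itgam held 3 copies, or 0.811 per kb. The median gene had 1.05 per kb, and 91.0% of genes held at least 1 copy. Itgb2 had 8 copies (2.69 per kb), Itgal 10 (2.21 per kb) and Cd44 9 (1.60 per kb). Densities of the other members ran from 0.524 per kb in Itgb1 to 1.12 per kb in Itgb7, with Itga2 and Itga4 in between. Cd27 thus had the densest motif of the 9, with a log2 fold change of 0.03. The 3 genes that differed came next in density, in both directions of change. Whether motif density and the genotype difference are related was not tested.

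Cd27 (chr6:125232622-125237010, minus strand) gave 3282, 3306 and 3300 normalized counts in WT and 3198, 3587 and 3318 in cKO samples. The cKO samples lay on both sides of the narrow WT range. The difference was 2.04%, with a 95% confidence interval from -4.31% to 8.81% (limma adjusted p = 0.66). The gene lies within the span of Vamp1 on the other strand without sharing an exon with it.

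Itgam (chr7:128062640-128118491, plus strand) had 51369, 50884 and 50944 normalized counts in WT and 50587, 51902 and 51041 in cKO samples. All 3 WT samples lay within the range of the cKO samples. The genotypes differed by 0.212%, with an interval from -3.75% to 4.34% (limma adjusted p = 0.948). The annotation holds a second gene model, Gm49368, over exons of Itgam on the same strand, which was not listed in the table.

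Set against each other within a sample, the pair kept a similar balance. The ratio of Cd27 to Itgam, both per kb of exon, was 0.139 ± 0.00125 in WT and 0.142 ± 0.00652 in cKO samples (SD, n = 3), and the genotypes overlapped. Transcript levels were measured here, and surface CD27 and CD11b were not. By flow cytometry the paper reported a lower share of CD27-negative, CD11b-positive cells among NK cells of cKO spleen and lung. It found no such change for liver and bone marrow.

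Other genes that change with NK maturation moved in both directions. Of 14 markers of mature NK cells 5 were higher and 5 lower, and of 14 markers of immature NK cells 4 were higher and 5 lower. Over all genes 17.8% were higher and 18.8% lower. Among the mature markers, the chemokine receptor Cx3cr1 rose (log2 fold change 0.54), as did S1pr5 (0.49), the sphingosine 1-phosphate receptor used to leave tissues. Ly6c2, a surface protein of late NK cells, fell by 1.34 on the log2 scale, and the inhibitory receptor Klrg1 fell by 0.55. Among the immature markers, the chemokine receptor Cxcr3 rose by 0.81 and the cytokine Ltb by 0.64, whereas the IL-2 receptor chain Il2ra fell by 0.73 and the growth factor receptor Kit fell by 0.53. Of 9 markers of type 1 innate lymphoid cells, the cytokine receptor Il21r (log2 fold change -0.47) was the 1 gene that passed the test. The median log2 fold change was 0.0020 for the mature list and 0.018 for the immature list, beside 0.0014 for all genes.

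The genes that carry the CD27 signal in the cell were mostly lower in cKO samples. Of 10 measured genes 0 were higher and 7 were lower, beside 17.8% and 18.8% of all genes. The list median log2 fold change was -0.35. The gene for the ligand, Cd70, was not listed. Traf1, an adaptor of TNF receptor signalling, had 47477, 47751 and 47828 normalized counts in WT and 30092, 29984 and 30016 in cKO samples (log2 fold change -0.67, SE 0.0282, limma adjusted p = 5.44e-16). Traf2, an adaptor that binds the CD27 tail, had 6635, 6040 and 6148 against 4777, 4984 and 5103 (log2 fold change -0.34, limma adjusted p = 2.15e-07). For both genes every cKO sample lay below every WT sample.

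The kinase Map3k14 (NIK), which starts the noncanonical NF-kB pathway, had a log2 fold change of -0.36. Its downstream subunits Nfkb2 and Relb each had a log2 fold change of -0.55. Birc3 and Birc2, ubiquitin ligases that restrain NIK, had log2 fold changes of -0.52 and -0.14. The 3 genes that did not pass were Traf5 (-0.01, adjusted p = 0.947), Traf3 (0.06, adjusted p = 0.316) and Siva1 (0.14, adjusted p = 0.143, all by limma). These genes act downstream of other receptors as well. In each alternative fit 7 genes were lower, with 2 higher when totals were made equal and also with limma-voom.

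Within the beta2 integrins, the beta chain and the alpha chain of LFA-1 differed in opposite directions. Itgb2 (chr10:77530252-77565708, plus strand) had 49347, 49956 and 47462 normalized counts in WT and 53978, 56018 and 54651 in cKO samples. Every cKO sample lay above every WT sample. The log2 fold change was 0.17 (SE 0.0299, limma adjusted p = 7.42e-05), an increase of 12.2% with an interval from 7.51% to 17.1%.

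Itgal (chr7:127296260-127335138, plus strand) had 106441, 102014 and 100476 normalized counts in WT and 93717, 94064 and 93791 in cKO samples. The 3 cKO samples lay close together and below every WT sample. The log2 fold change was -0.13 (SE 0.0297, limma adjusted p = 0.00078), or -8.83% with an interval from -12.6% to -4.89%.

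Per kb of exon, the ratio of Itgb2 to Itgal was 0.998, 1.05 and 1.02 in WT and 1.24, 1.28 and 1.25 in cKO samples. The mean ratio was thus 1.23 times as high in cKO cells, and the genotypes did not overlap. The ratio of Itgb2 to Itgam was 1.58 ± 0.0414 in WT and 1.77 ± 0.0103 in cKO samples (SD, n = 3), again without overlap. These ratios are within a sample and so do not depend on the scaling between samples.

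**Figure D2:**
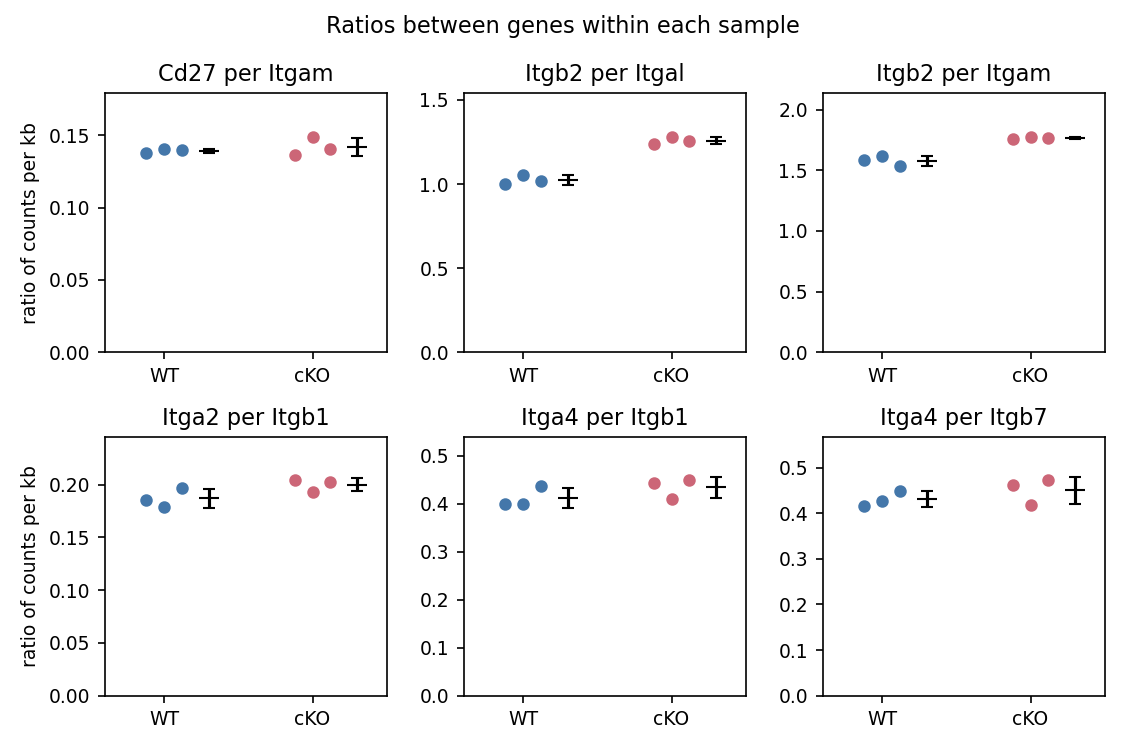
Ratios of normalized counts per kb of exon between an integrin alpha and a beta gene, or between Cd27 and Itgam, in the 3 WT (blue) and 3 cKO (red) samples, with the mean and SD as black marks. Itgb2 per Itgal and Itgb2 per Itgam were higher in every cKO sample than in any WT sample, and the other 4 ratios overlapped.

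The beta2 chain has 2 further alpha partners, CD11c (Itgax) and CD11d (Itgad). Itgax had 42370, 40153 and 40069 normalized counts in WT and 42874, 43770 and 42938 in cKO samples (log2 fold change 0.08, limma adjusted p = 0.0378). Itgad had 2435, 2569 and 2469 in WT and 2291, 2255 and 2306 in cKO samples (log2 fold change -0.12, limma adjusted p = 0.0363). Neither overlapped between the genotypes, but both calls were narrow. Without WT replicate 2, WT replicate 3 or any 1 of the cKO replicates neither gene passed (limma adjusted p = 0.0588 to 0.144 over both genes). Itgax also did not pass with a correction for GC content and length (log2 fold change 0.047, adjusted p = 0.242), nor Itgad with equal totals (-0.075, adjusted p = 0.210) or limma-voom (-0.074, adjusted p = 0.222).

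Of the summed transcripts of the 4 alpha chains per kb, Itgal made up 44.9% ± 0.357 in WT and 42.1% ± 0.236 in cKO samples (SD, n = 3). The share of Itgam was 29.1% ± 0.504 and 30.0% ± 0.167, and that of Itgax was 24.4% ± 0.247 and 26.5% ± 0.113. Itgad made up 1.58% ± 0.0698 and 1.49% ± 0.0272. Itgb2 per sum of the 4 alpha chains was 0.459 ± 0.0121 in WT and 0.529 ± 0.00603 in cKO samples, and every cKO ratio lay above every WT ratio.

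None of the 4 beta1 and beta7 integrin genes passed the test by limma with adjustment over all genes, beside 36.6% of all genes that did. Of these 4, Itgb1 had an unadjusted limma p of 0.0492. Itgb1 (chr8:128685654-128733200, plus strand) encodes the common beta chain and had 42990, 41795 and 40260 normalized counts in WT and 39455, 40507 and 39720 in cKO samples. A single cKO sample reached into the WT range. The difference was -4.26%, with an interval from -8.32% to -0.0166% (limma adjusted p = 0.112), and the gene passed when WT replicate 3 was left out (log2 fold change -0.088, adjusted p = 0.0442).

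Itga2 (chr13:114833081-114932100, minus strand) gave 13917, 13080 and 13869 normalized counts in WT and 14097, 13677 and 14081 in cKO samples. The difference was 2.45%, with an interval from -2.26% to 7.40% (limma adjusted p = 0.446). Scaled to equal totals, the log2 fold change was 0.085 (adjusted p = 0.0458). CD49b with CD29 is also the collagen receptor of platelets, and the platelet markers Gp9, Pf4 and Ppbp were not listed. Of the 5 platelet markers that were, Gp6 was called, at 8, 5 and 18 normalized counts in WT and 45, 23 and 45 in cKO samples. Itga2b, Itgb3, Gp1bb and Gp1ba had adjusted p of 0.0528 or above by limma.

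Itga4 (chr2:79255426-79333123, plus strand) had 58977, 57312 and 60183 normalized counts in WT and 59982, 56804 and 61163 in cKO samples. The WT range lay inside the cKO range, and the difference was 0.808% with an interval from -3.64% to 5.46% (limma adjusted p = 0.815). Its last exons overlap those of Cerkl on the other strand, and the strand setting of the counting was not given in the sources used here, so reads of the overlap cannot be told apart.

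Itgb7 (chr15:102215995-102231944, minus strand) gave 28118, 26565 and 26533 normalized counts in WT and 25774, 26989 and 25657 in cKO samples. The difference was -3.43%, with an interval from -7.74% to 1.08% (limma adjusted p = 0.235). Ratios of Itga2 to Itgb1 (0.187 ± 0.00918 in WT and 0.200 ± 0.00608 in cKO), of Itga4 to Itgb1 (0.412 ± 0.0208 and 0.434 ± 0.0217) and of Itga4 to Itgb7 (0.431 ± 0.0172 and 0.450 ± 0.0292) overlapped between the genotypes (per kb, SD, n = 3).

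Cd44 (chr2:102811141-102901665, minus strand) gave 17782, 18137 and 17181 normalized counts in WT and 15928, 15678 and 15807 in cKO samples. Every cKO sample lay below every WT sample. The log2 fold change was -0.16 (SE 0.0313, limma adjusted p = 0.000155), or -10.7% with an interval from -14.6% to -6.62%. Counts per gene do not separate the splice forms of CD44.

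The transcripts of the 3 ERM proteins, which tie CD44 to the actin cytoskeleton, were lower as well. Ezr (ezrin) had 83569, 81657 and 79974 normalized counts in WT and 60849, 64297 and 60642 in cKO samples (log2 fold change -0.40, limma adjusted p = 7.04e-11). Its relatives Msn (moesin) and Rdx (radixin) had log2 fold changes of -0.17 and -0.16. In the whole list of CD44 partners and hyaluronan enzymes, 2 of 12 measured genes were higher and 3 lower. These counts stand beside 17.8% and 18.8% of all genes, and the list median log2 fold change was 0.0094. The 2 higher genes were the Rac activator Tiam1 (0.60) and the hyaluronan receptor Hmmr (0.38), both at low levels of 108 to 217 and 184 to 267 normalized counts. Without WT replicate 3 neither passed (limma adjusted p = 0.0554 for Tiam1 and 0.0868 for Hmmr), and Hmmr also did not pass without cKO replicate 1 (0.104) or cKO replicate 3 (0.0663).

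**Figure D3:**
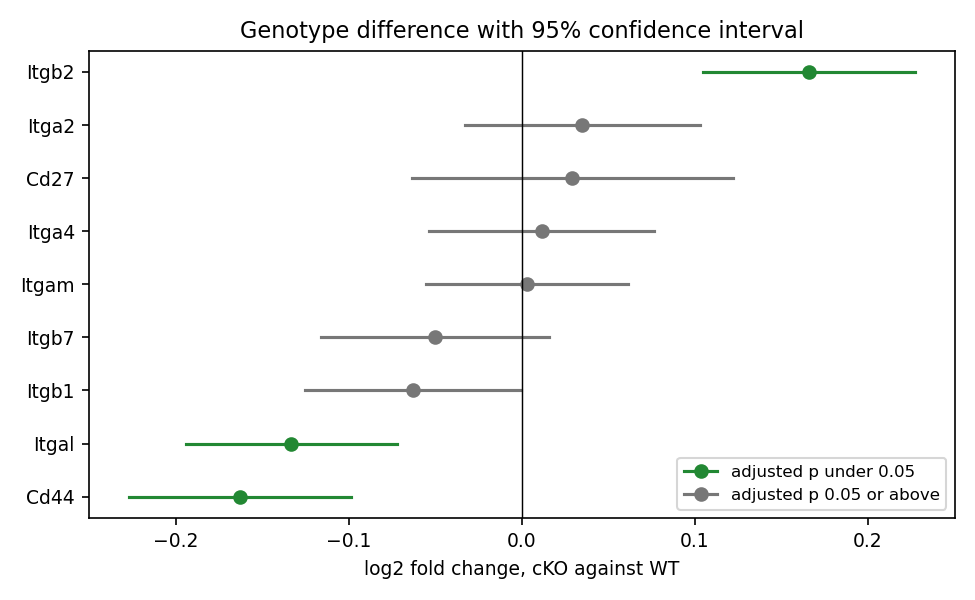
Log2 fold change (cKO against WT) of the 9 genes from limma, as points with their 95% confidence intervals, where green marks an adjusted p under 0.05. Itgb2 at 0.17, Itgal at -0.13 and Cd44 at -0.16 passed, and the interval of Itgb1 ended just below 0.

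For each of Itgb2, Itgal and Cd44 the exact two-sided permutation test over the 20 assignments of the samples gave p = 0.1, the smallest that 3 against 3 samples allow. The cKO samples lay outside the WT range for these 3 of 9 genes, beside 45.7% of all genes. The labels do not say whether samples came from separate mice, so the p-values measure the spread between these samples, which may be technical.

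All 9 genes were well expressed, above 84.6% of 14110 genes per kb of exon for the lowest and above 98.7% for the highest. In normalized counts per kb, averaged over the 6 samples, the order ran from Itgb2 (17006) and Itgal (14982) through Itgam (10175), Itgb1 (9995) and Itgb7 (9605) to Itga4 (4226), Cd44 (2472), Itga2 (1933) and Cd27 (1431). Ranges over samples overlapped between Itgb2 and Itgal, between Itgam and Itgb1 and between Itgb1 and Itgb7, and the other neighbours were separate. With the mean length of the annotated transcripts in place of the exon union, Itgb7 came first and Itga2 last, so the order depends on the length used.

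Of 11 other alpha integrin genes measured, 2 were higher and 3 lower, beside 17.8% and 18.8% of all genes, with a median log2 fold change of -0.05. The highest was the collagen-binding chain Itga10 at 0.60, which had 112, 127 and 123 normalized counts in WT and 211, 179 and 164 in cKO samples. The lowest was the alpha chain of vitronectin receptors, Itgav, at -0.21, with 2682, 2432 and 2490 against 2178, 2163 and 2244. Of 3 measured beta genes Itgb5, a partner of Itgav, was higher (log2 fold change 0.36), with 428, 414 and 388 normalized counts in WT and 531, 582 and 467 in cKO samples. Itgb3 and Itgb4 had log2 fold changes of 0.22 and 0.47 that did not pass (limma adjusted p = 0.0528 and 0.387). Itga10 did not pass without cKO replicate 1 (adjusted p = 0.0503), nor Itgb5 without cKO replicate 2 (0.0554).

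Among integrin ligands, Icam1, the ligand of LFA-1 and Mac-1, had a larger fold change than any of the 9 genes. It had 109655, 110690 and 109615 normalized counts in WT and 78554, 77750 and 77688 in cKO samples, a difference of -29.1% (log2 fold change -0.50, SE 0.0281, limma adjusted p = 1.67e-13). Vcam1, the ligand of CD49d with CD29, was higher, with 2881, 2792 and 2784 against 3403, 3548 and 3369 (log2 fold change 0.29). The other 5 of 7 measured ligands did not pass. In this list 1 gene was thus higher and 1 lower, beside 17.8% and 18.8% of all genes.

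Of 36 measured genes that control integrin activation and link integrins to actin, 6 were higher and 13 lower in cKO samples. These counts stand beside 17.8% and 18.8% of all genes, and the list median log2 fold change was -0.04. The small GTPase Rap1a, which starts integrin activation, had 7877, 8450 and 8175 normalized counts in WT and 6949, 7074 and 6983 in cKO samples (log2 fold change -0.22). Vasp, which promotes actin growth at adhesion sites, had 38955, 41022 and 40363 against 34771, 34564 and 34238 (log2 fold change -0.22). Sipa1, which switches Rap1 off, was higher at 34967, 35468 and 34329 against 29102, 28555 and 28680 in WT samples (log2 fold change 0.28). Sharpin, which holds integrins inactive, rose by 0.22 on the log2 scale. With equal totals the share of higher genes among all called genes moved from 48.5% to 63.4%. The calls in that list of 36 then became 8 higher and 9 lower.

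Larger differences were found among other adhesion molecules. Of 26 measured selectins, immunoglobulin-type molecules and tetraspanins 5 were higher and 9 lower, beside 17.8% and 18.8% of all genes. Selplg (PSGL-1), a selectin ligand, had 42212, 42351 and 40178 normalized counts in WT and 60744, 62022 and 57561 in cKO samples (log2 fold change 0.53). The tetraspanin Cd9 was lower, at 7545, 7175 and 7502 in cKO against 10137, 10668 and 10463 in WT samples (log2 fold change -0.49), and so was Mcam (CD146), with a log2 fold change of -0.35.

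**Figure D4:**
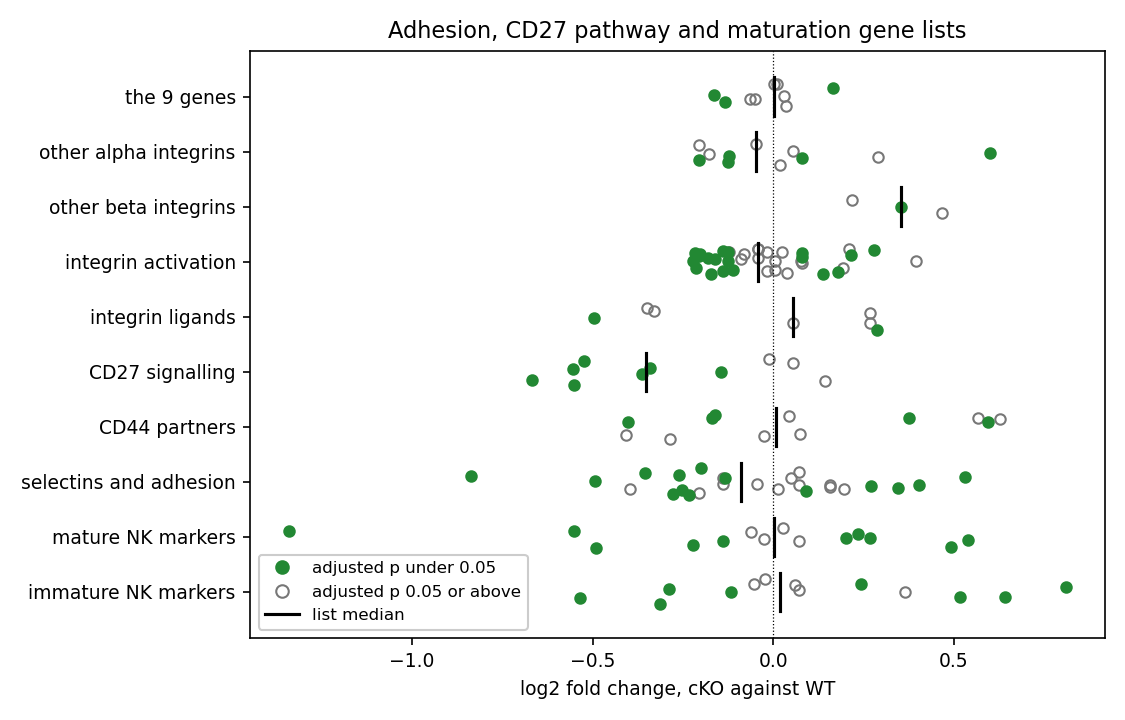
Log2 fold change (cKO against WT) of each of the 9 genes and of each measured gene in 9 related gene lists. Filled green marks an adjusted p under 0.05, and black bars mark the list medians. The 9 genes lie between -0.16 and 0.17, and the CD27 signalling list has its median at -0.35.

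As a description, the called genes whose log2 values followed those of 3 members most closely over the 6 samples were taken from 4027 genes with a mean CPM (counts scaled to equal totals) of at least 10. Cd27 was followed by Rrn3 (Pearson r = 0.82), Eif2b1 (0.76) and Shoc2 (0.76). Itgam was followed by Vps72 (0.70), Lrrc8c (0.69) and Ercc4 (0.69), and Itga2 by Afdn (0.93), Zfp316 (0.92) and Ylpm1 (0.91). All genes share the same 6 samples and their depth, and no test was made. The 3 members themselves did not pass, and genes that did not pass were not searched. The highest of 4027 correlations over 6 samples can be large without any relation.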

How the data were processed

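Polyadenylated RNA of splenic NK cells was sequenced in 3 WT and 3 cKO samples, grouped by the labels. The authors aligned the reads to GRCm38 with HISAT2 (2.0.5 in the submitters' processing notes), counted them per gene with featureCounts (1.5.0-p3) and compared genotypes with DESeq2 (1.16.1 in those notes). The annotation and strand setting were not given in the sources used here. For each sample the authors deposited a normalized signal, its read counts divided by a DESeq2 size factor. The deposited columns of the authors' log2 fold changes, Wald statistic (a score) and p-values were not used. All values were whole multiples, within 0.1, of a step for each sample, which gave the reads per sample. These reads are computed values, and a simpler check that starts from the smallest value of a sample found whole multiples in 1 of 6 samples, which bears on the read totals and on limma-voom. Samples of a genotype differed by more than counting noise (chi-square per degree of freedom 5.50 to 8.00).

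The test was limma 3.58.1 in R 4.3.3 with a variance trend on log2(normalized count + 1), cKO against WT, with Benjamini-Hochberg adjustment over 14490 genes and a threshold of 0.05. A filter of 1 normalized count in 3 samples removed no gene. Fold changes are on that log2 scale. The procedure was tested on simulated data. Positions, lengths and transcripts came from GENCODE M21 (GRCm38), which matched 97.4% of names. Counts per kb used the union of exons.

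The 9 genes and all lists were chosen with earlier results of these data known. Named were the 9 genes, Mettl3, Ncr1, and in each list the called genes with the 2 highest and 2 lowest log2 fold changes at a mean CPM of 1 or more, with lists of 6 or fewer measured genes in full. For Cd27, Itgam and Itga2, the 3 most similar called genes were named. The remaining CD27 signalling genes, Rdx, Cd3g and Lef1 were named after their values were seen, and the erythroid list is given by its counts. One gene that the rule named is not reported here. Alternatives were other pseudocounts, filters, scalings (equal totals, TMM), limma-voom on the reads computed from the steps, the replicate number as a block, correction for GC content and length, and each replicate left out.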

Additional observations from a re-analysis of the deposited data

How the results depend on the processing

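Itgb2, Itgal and Cd44 kept their direction and an adjusted p under 0.05 in all 16 alternative fits (limma adjusted p from 3.29e-07 to 0.0012, from 2.17e-05 to 0.0153 and from 4.28e-05 to 0.00397). The fit with no filter among them was the same as the main fit, since the filter removed no gene. By the study's threshold, applied to the limma results, 0 of the 9 genes passed, beside 1.75% of all genes.

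Among genes that did not pass, Itga2 passed with equal totals (log2 fold change 0.085) and with limma-voom (0.083), and Itgb7 with the GC and length correction and the replicate block (-0.080). The log2 fold change of Itgam was -0.030 with that correction, with or without the block. With 1 replicate left out it ranged from -0.0071 to 0.011 for Itgam, from -0.017 to 0.066 for Cd27, from -0.011 to 0.042 for Itga4 and from -0.088 to -0.040 for Itgb1. The cause was not tested.

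The other alpha integrins had 3 calls with equal totals and with limma-voom, and 2 to 5 with a replicate left out. The other beta integrins had 2 calls with a 1 CPM filter, equal totals, TMM, limma-voom or the replicate block, and 0 to 2 with a replicate left out. CD44 partners had 3 to 5 with a replicate left out, and 6 with equal totals or limma-voom. Equal totals turned the split over all genes from 2576 higher and 2731 lower to 3487 and 2016, limma-voom to 3439 and 2010, and both moved the median log2 fold change to 0.051.

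With the replicate block, 3 of the 9 genes and 5543 of all genes passed. Same-numbered samples correlated at -0.024, 0.12 and 0.045, so the numbers were not taken as pairs. Count tests with edgeR and DESeq2 were not run, because the reads were computed from normalized values and a simpler check found whole reads in 1 of 6 samples only. With 3 samples a genotype, the intervals of the 6 genes that did not pass allow differences of the sizes they span.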
